A study of Mus musculus with 12 samples.

Results

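The neurexins, neuroligins and Cntnap genes encode cell-surface proteins through which neurons bind each other and build synapses. The 9 genes described here, of 23513 in the tables, were taken by name: 2 neurexins (Nrxn2 and Nrxn3), 3 neuroligins (Nlgn1, Nlgn2 and Nlgn3) and 4 contactin-associated protein genes (Cntnap2, Cntnap4, Cntnap5a and Cntnap5b). They were followed in nuclei of the embryonic mouse cortex after prenatal exposure to ethanol (EtOH) or saline.

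Neurexins sit in the presynaptic membrane and bind postsynaptic partners across the cleft, among them the neuroligins. Nlgn1 is known mainly from excitatory synapses, Nlgn2 from inhibitory synapses and Nlgn3 from both. The Cntnap proteins (also called Caspr proteins) are neurexin relatives. CNTNAP2 binds contactin-2 and gathers potassium channels along myelinated axons, and CNTNAP4 has been studied in interneurons. Synapses are few in the cortex at midgestation, when these genes are already transcribed by migrating and newly settled neurons.

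Pregnant C57BL/6J dams received EtOH at 2.5 g/kg, given intraperitoneally as a 25% (v/v) solution in saline, or saline alone, in 6 once-daily injections from E8.5 to E13.5. Cortices were collected at E14.5 according to the methods and at embryonic day 14 according to the labels, and the nuclei of each embryo made 1 library. Saline was given to dam S1, with embryos S1-1 and S1-2, and to dam S2, with S2-1, S2-2 and S2-4, which makes 5 saline embryos. EtOH was given to dam E1, with E1-1 and E1-2, and to dam E2, with E2-1, E2-2, E2-3 and E2-4, which makes 6. Batch 1 held the litters of S1 and E1, and batch 2 those of S2 and E2. Male and female embryos were pooled in each group, and the sex of each embryo is not given. With 2 dams per treatment the tests below take littermates as independent unless the dam is named.

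The tables held 50550 nuclei in the authors' 25 clusters: 8 of projection neurons (PN), 5 of radial glia and other progenitors (RGC), 2 of intermediate progenitors (IPC), 7 of interneurons and 3 others. Saline libraries were deeper, with 44017566 to 83061737 UMIs (molecules counted by their unique identifiers) and medians of 6325 to 9051 UMIs per nucleus, against 14078316 to 38034349 UMIs and medians of 4071.5 to 6911 in EtOH libraries. The 6325 was the median of saline embryo S2-4, which lay inside the EtOH range, while the other saline embryos had medians of 8365 to 9051. Any pair of the 11 libraries shared 1 to 18 cell barcodes. Class markers matched the cluster names: Neurod2 and Neurod6 summed to 268 to 377 CPM (counts per 1e+06 UMIs) in PN clusters and to at most 59.1 CPM in interneuron clusters, while Gad2, Gad1 and Dlx1 summed to at least 1238 CPM in interneuron clusters. Microglial transcripts over all nuclei lay at 7.57 to 16.5 CPM in saline and 13.7 to 18.8 CPM in EtOH embryos, and their part in the results below was not tested. Saline embryo S2-4 weighed on the tests of all genes, since leaving it out raised the number of gene and cluster pairs called from 1721 to 19059.

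The genes differ widely in length, which matters because nuclei hold much unspliced RNA. On GRCm38, Nrxn2 spans chromosome 19 from 6418731 to 6544169 (125 kb, plus strand) and Nrxn3 chromosome 12 from 88722876 to 90334935 (1612 kb, plus strand). Nlgn1 lies on chromosome 3 from 25426215 to 26332460 (906 kb, minus strand), Nlgn2 on chromosome 11 from 69823122 to 69837784 (14.7 kb, minus strand) and Nlgn3 on chromosome X from 101299168 to 101325963 (26.8 kb, plus strand). Cntnap2 spans chromosome 6 from 45059357 to 47304213 (2245 kb, plus strand) and Cntnap4 chromosome 8 from 112570043 to 112882717 (313 kb, plus strand). Cntnap5a and Cntnap5b lie on chromosome 1, from 115684756 to 116587323 (903 kb) and from 99772765 to 100485942 (713 kb), both on the plus strand. Opposite-strand genes in the tables overlap Nrxn2 (Gm14964, Slc22a12), Nlgn1 (A830092H15Rik) and Cntnap4 (Gm45904). The strand used in counting is not given in the sources used here, so reads of these overlapping genes may not be told apart. Total counts over all embryos ran from 13810 UMIs for Nlgn3 and 22826 for Nlgn2 to 1300176 for Nlgn1 and 3371814 for Nrxn3, so counting error is relatively largest for Nlgn3 and Nlgn2.

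Nrxn3 set the interneuron clusters apart from the PN, IPC and RGC clusters. Its level, the mean CPM over embryos ± SD, was 43970 ± 2843 CPM (n = 10, for the embryos holding at least 10 such nuclei) for Cluster 23 (Migrating Int), 29587 ± 2382 CPM (n = 11) in Cluster 5 (Migrating Int) and 26476 ± 3562 CPM (n = 11) in Cluster 10 (Late Int Precursor). Every embryo with both clusters kept this order. All 7 interneuron clusters lay between 11946 and 43970 CPM, and striatal Cluster 11 reached 11876 CPM. The 8 PN clusters lay between 680 and 1887 CPM, with the lowest level in callosal Cluster 1 (680 ± 482 CPM), 64.7-fold under Cluster 23. IPC clusters at 994 to 1321 CPM and RGC clusters at 1341 to 2843 CPM were also far under the interneurons. Nrxn2, the shorter neurexin, followed neurons as a whole. It was highest in Cluster 15 (Int 3, 372 ± 51.0 CPM), Cluster 23 (341 ± 56.9 CPM) and Cluster 19 (319 ± 33.1 CPM), and lowest in RGC Cluster 2 (48.2 ± 7.53 CPM).

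Among the neuroligins, Nlgn1 peaked in deep-layer projection neurons. Cluster 4 (Rostral Subcortical PN) had 8174 ± 485 CPM, more than Cluster 16 (Caudal Subcortical PN, 4870 ± 618 CPM) in 11 of 11 embryos, followed by Cluster 25 (PN 3, 4253 ± 624 CPM, n = 7). The lowest Nlgn1 level was in striatal Cluster 11 (1060 ± 224 CPM), 7.71-fold under Cluster 4. Nlgn2 was nearly even. Callosal PN (Cluster 1, 60.4 ± 5.99 CPM), striatal cells (Cluster 11, 60.0 ± 5.98 CPM) and early PN (Cluster 9, 59.8 ± 5.57 CPM) led, and Cluster 21 was lowest (26.8 ± 7.20 CPM). Nlgn3 was also low everywhere, led by Cluster 23 (48.2 ± 22.5 CPM), Cluster 22 (42.6 ± 13.4 CPM) and Cluster 25 (41.4 ± 13.1 CPM), with its lowest level of 14.1 ± 4.30 CPM in non-mitotic IPC (Cluster 6).

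Cntnap2, Cntnap5a and Cntnap5b were highest in small sets of differentiated neurons and lowest in mitotic IPC. Cntnap4 was highest in RGC Cluster 21 and in migrating interneuron Clusters 23 and 5. Cntnap2 had its highest levels in Cluster 15 (Int 3, 5696 ± 870 CPM), Cluster 25 (4801 ± 1066 CPM) and Layer I Cluster 14 (3254 ± 892 CPM), and its lowest in mitotic IPC Cluster 17 (143 ± 42.4 CPM), 39.8-fold lower. Cntnap5a shared this top pair, at 1414 ± 506 CPM (Int 3) and 994 ± 604 CPM (PN 3), with 878 ± 286 CPM in Cluster 19 and 19.996 ± 8.22 CPM in mitotic IPC. Cntnap5b instead peaked in Cluster 18 (Int 4) at 1465 ± 421 CPM, above the 465 ± 177 CPM of Cluster 19 in 10 of 11 embryos. Cluster 25 had 450 ± 245 CPM of it, and mitotic IPC 20.2 ± 4.54 CPM. The Cntnap4 levels of Cluster 21 (NEC, 897 ± 247 CPM), Cluster 23 (878 ± 332 CPM) and Cluster 5 (764 ± 109 CPM) led. The authors class Cluster 21 as cortical hem RGC. Cluster 21 was above 23 in 5 of 9 embryos, and 23 came first when counts were pooled (826 against 752 CPM). The lowest level was 57.5 ± 19.1 CPM in early PN Cluster 9, 15.6-fold under Cluster 21.

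Most neighbours in these orders were not separated beyond their spread. Of the 24 steps between neighbouring clusters, the mean difference within embryos was no larger than its SD for 18 steps of Nrxn3, 21 each of Nlgn1, Cntnap2 and Cntnap5a, 22 each of Nrxn2 and Cntnap5b, and 23 each of Nlgn2, Nlgn3 and Cntnap4. The steps at the top that exceeded it were those of Nrxn3 from Cluster 23 to 5, 10 and 13, of Nlgn1 from Cluster 4 to 16, of Cntnap2 from Cluster 25 to 14, of Cntnap4 from Cluster 5 to 19, of Cntnap5a from Cluster 19 to 7 and of Cntnap5b from Cluster 18 to 19. Compared per 100 kb of gene span, the highest cluster levels ran from 2728 CPM for Nrxn3 and 902 CPM for Nlgn1 through 412 CPM for Nlgn2 and 297 CPM for Nrxn2 to 157 CPM for Cntnap5a.

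**Figure D1:**
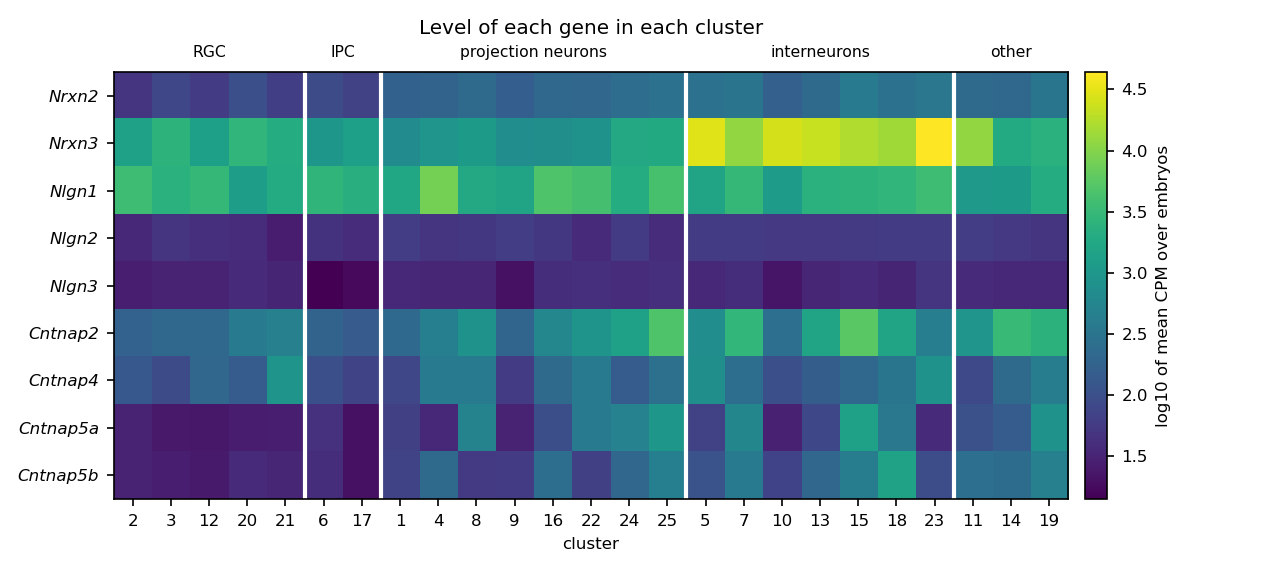
Colour gives the log10 of the mean CPM over embryos of each gene (rows) in each of the 25 clusters (columns, grouped by class). Nrxn3 is high across the 7 interneuron clusters, from 11946 to 43970 CPM, while Nlgn1 peaks in Cluster 4 and Cntnap5b in Cluster 18.

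The share of nuclei with at least 1 UMI gave a similar picture once every nucleus was thinned to 2000 UMIs, which left out 177 of 30349 saline and 210 of 20201 EtOH nuclei. Nrxn3 was found in 45.6% of nuclei in Cluster 4 and 100% in Cluster 23, and Nlgn1 in 60.3% (Cluster 14) to 98.9% (Cluster 4). Cntnap2 ranged from 22.1% (Cluster 17) to 93.4% (Cluster 25), Cntnap5a from 3.45% (Cluster 2) to 57.6% (Cluster 25), and Cntnap5b from 2.87% (Cluster 17) to 49.7% (Cluster 18). Nlgn2 never exceeded 12.4% and Nlgn3 never exceeded 10.1%. Nuclei of every cluster can carry free RNA from other cells. Gad2, Gad1 or Dlx1, used here as interneuron markers, were seen in 5.84% to 52.4% of PN nuclei per embryo. The source of these UMIs was not tested. These marker shares are not thinned, so they cannot be set directly against the thinned shares of the members.

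Across the 25 clusters, the members' own patterns were most alike for Cntnap2 and Cntnap5a (Pearson r = 0.87 of log2 levels), Cntnap2 and Cntnap5b (0.82) and Nrxn2 and Cntnap5b (0.82), and least for Nrxn3 and Nlgn1 (-0.24). These are descriptions over clusters that share libraries. Of 9238 genes compared, the ones most like Nrxn3 were Gad1 (r = 0.96), which makes GABA, the interneuron transcription factor gene Dlx6 (0.96) and Gad2 (0.95). Nrxn2 resembled Mast1 (0.97) and Gpr45 (0.96). The closest to Nlgn1 were Acp1 (0.88), Nab1 (0.65) and Gm20063 (0.65), to Nlgn2 Nsg1 (0.88), Ttbk1 (0.86) and Gnaq (0.86), and to Nlgn3 B3galnt1 (0.90), Tmem184b (0.85) and Rhobtb2 (0.85). Cntnap2 was closest to Spock2 (0.94), the Notch ligand gene Jag2 (0.94) and Rit2 (0.93), Cntnap5a to L3mbtl4 (0.91), Dlk2 (0.90) and Vwc2l (0.90), and Cntnap5b to Ptprr (0.89), Galntl6 (0.88) and Gm26905 (0.88). Cntnap4 was closest to Gm45904 (0.93), the gene that overlaps it on the other strand, then to Vat1l (0.81) and Lgi1 (0.79).

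Whether EtOH changed these genes was first asked cluster by cluster. Nlgn1 in migrating interneurons (Cluster 5) and Cntnap5a in early PN (Cluster 9) were lower after EtOH, and no other member passed in any cluster. The test was edgeR's quasi-likelihood test on counts summed per embryo and cluster, called at a Benjamini-Hochberg adjusted p under 0.05 within the cluster together with the study's minimum fold change in either direction. Of 223 member and cluster pairs tested (Cntnap5a in Cluster 23 and Nlgn3 in Cluster 24 had too few counts), 2 were called, or 0.897%, against 0.792% of all gene and cluster pairs, and 0.35% of all pairs were called lower. In this main fit the share of calls among the members was thus near the background. Counts under other fits are given in the last section. At an unadjusted p under 0.05 stood 49 pairs (21.97%, against 17.4% of all pairs), 43 of them lower after EtOH. Fold changes lay below 0 on the log2 scale in 150 of the 223 pairs, with a median of -0.13, while the median of all genes within a cluster lay between -0.01 and 0.01.

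Nlgn1 in Cluster 5 stood at 1921, 1848, 1861, 1680 and 1638 CPM in saline embryos S1-1, S1-2, S2-1, S2-2 and S2-4, and at 1224, 1291, 1425, 1344, 1297 and 1531 CPM in EtOH embryos E1-1 to E2-4. All 6 EtOH embryos were below all 5 saline embryos. The means were 1790 ± 123 CPM and 1352 ± 110 CPM (SD), and the log2 fold change was -0.46 ± 0.08 (SE, edgeR adjusted p = 0.0187), where 0.813% of genes in this cluster were called lower. The log2 ratio of the group means was -0.58 in batch 1 and -0.30 in batch 2. With counts summed per dam, the edgeR adjusted p was 0.119. The call was lost without S1-2 (edgeR adjusted p = 0.0741), S2-1 (0.0529), E1-2 (0.0672), E2-2 (0.0620) or E2-3 (0.0540). The log2 fold changes were then -0.44 to -0.45. In Cluster 5 microglial markers lay at 4.75 to 6.96 CPM in saline and 8.42 to 13.3 CPM in EtOH embryos. Pan-neuronal markers overlapped, at 2824 to 3109 and 2537 to 2975 CPM. The part of these markers in the result was not examined.

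Cntnap5a in Cluster 9 rested on few molecules, 58 to 155 UMIs per saline embryo and 8 to 32 per EtOH embryo. Its levels were 45.5, 34.8, 42.2, 64.3 and 30.1 CPM in the saline embryos and 15.02, 26.4, 8.27, 22.05, 15.7 and 28.4 CPM in the EtOH embryos, again without overlap. The means were 43.4 ± 13.2 and 19.3 ± 7.67 CPM, and the log2 fold change was -1.15 ± 0.25 (edgeR adjusted p = 0.0376), where 0.799% of genes in this cluster were called lower. Within batches the log2 ratios were -0.96 and -1.29. The edgeR adjusted p rose to 0.0599 with batch as a block and to 0.0684 when PN nuclei with an interneuron marker UMI were left out. The voom fit with the dam as a random block gave 0.0529. It was also above 0.05 without S1-1 (0.0976), S1-2 (0.0625), S2-1 (0.0686), S2-2 (0.0623), E1-1 (0.0720), E2-1 (0.0597), E2-2 (0.0834) or E2-3 (0.0826). The log2 fold change lay between -0.98 and -1.32 in all 18 alternatives. Markers of other cells differed in Cluster 9 too, with the Layer I marker at 224 to 405 CPM in saline and 138 to 200.015 CPM in EtOH embryos, interneuron markers at 41.8 to 114 and 6.29 to 47.8 CPM, and the IPC marker at 46.1 to 91.6 and 23.8 to 48.2 CPM. Per interneuron marker UMI there were 0.369 to 0.767 Cntnap5a UMIs in saline and 0.333 to 2.5 in EtOH embryos. The 2.5 was E2-3, with 10 Cntnap5a UMIs and interneuron markers at 6.29 CPM, and the next highest EtOH value was 1.48 (E2-4). The part of these markers in the result was not tested.

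Several other pairs came near the threshold without passing it in the main fit. Of 19 alternatives, 4 called Nrxn3 in Cluster 9, 4 called Cntnap2 in Cluster 1 and 3 called Nrxn3 in Cluster 1. In callosal PN Cluster 1, Nrxn3 stood at 1524, 1130, 1520, 576 and 403 CPM in the saline embryos and at 359, 449, 615, 387, 195 and 319 CPM in the EtOH embryos. The 3 saline embryos S1-1, S1-2 and S2-1 were above every EtOH embryo, while S2-2 and S2-4 overlapped them, and the log2 fold change was -1.47 ± 0.42 (edgeR adjusted p = 0.0803). Without S2-4 it was -1.68 (edgeR adjusted p = 0.0124). In early PN Cluster 9, where S2-4 alone overlapped the EtOH embryos, there were 1471, 1176, 1892, 930 and 408 CPM for Nrxn3 in saline and 526, 422, 254, 484, 162 and 209 CPM in EtOH embryos (log2 fold change -1.82 ± 0.44, edgeR adjusted p = 0.0755). Cntnap2 in Cluster 1 stood at 301, 240, 412, 314 and 163 CPM in saline and at 166, 200, 151, 145, 138 and 165 CPM in EtOH embryos. Only S2-4 overlapped the EtOH range, and the log2 fold change was -0.88 ± 0.22 (edgeR adjusted p = 0.0569), or -1.04 (adjusted p = 0.000828) without S2-4.

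In the interneurons where Nrxn3 is abundant, its change was small. Cluster 5 had a log2 fold change of -0.18 ± 0.09 (edgeR adjusted p = 0.249), with 27783 to 33116 CPM in saline and 27078 to 30159 CPM in EtOH embryos. Cntnap2 in Cluster 7 (Int 1), one of its abundant clusters, had a log2 fold change of 0.29 ± 0.17 (edgeR adjusted p = 0.408), or 0.15 without E1-2. One pair with an adjusted p near the threshold was higher in EtOH, Cntnap4 in Cluster 21 at 0.67 ± 0.14 (edgeR adjusted p = 0.0632). It was called with batch as a block (0.68 ± 0.13, edgeR adjusted p = 0.0470), with voom and the dam as a random block (limma adjusted p = 0.0256), with DESeq2 (0.00699), without the filter on low counts (0.00559), and without S1-1 (0.0418) or S2-4 (0.0382). The pair was not called with counts summed per dam (0.64 ± 0.20, edgeR adjusted p = 0.362) or thinned to 2000 UMIs (0.0817). Nor was it without S1-2 (edgeR adjusted p = 0.114), S2-1 (0.110), S2-2 (0.134), E1-1 (0.132), E1-2 (0.0860), E2-2 (0.116), E2-3 (0.101) or E2-4 (0.101). Only 10 embryos held at least 10 nuclei of Cluster 21.

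**Figure D2:**
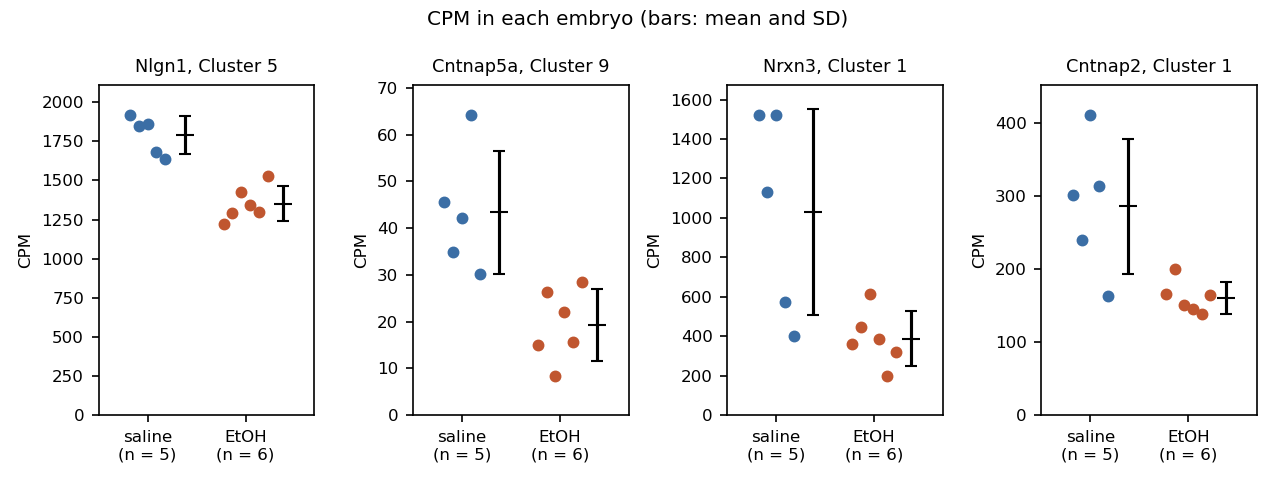
Points give the CPM of each embryo for Nlgn1 in Cluster 5, Cntnap5a in Cluster 9, Nrxn3 in Cluster 1 and Cntnap2 in Cluster 1, with bars for the mean and SD of 5 saline and 6 EtOH embryos. The groups are apart in the first 2 panels, while S2-2 and S2-4 for Nrxn3 and S2-4 for Cntnap2 lie among the EtOH embryos.

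Over clusters, the sign of the fold change varied by gene. Nrxn3 was below 0 in 23 of 25 clusters (median -0.48), Nlgn2 in 22 of 25 (-0.12), Nlgn1 in 21 of 25 (-0.22) and Cntnap2 in 18 of 25 (-0.23). Cntnap5b lay below 0 in 16 of 25 (-0.08), Cntnap5a in 15 of 24 (-0.23), and Cntnap4 and Nrxn2 each in 15 of 25 (-0.13 and -0.03). Nlgn3 was the exception, below 0 in 5 of 24 clusters with a median of 0.08. Nrxn3 had a median of -0.95 in the 8 PN clusters, -0.76 in RGC, -0.89 in IPC and -0.18 in interneuron clusters. Cntnap2 had medians of -0.65 in RGC, -0.71 in IPC, -0.26 in PN and 0.02 in interneuron clusters. Clusters share the same 11 embryos, so these counts are a description.

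**Figure D3:**
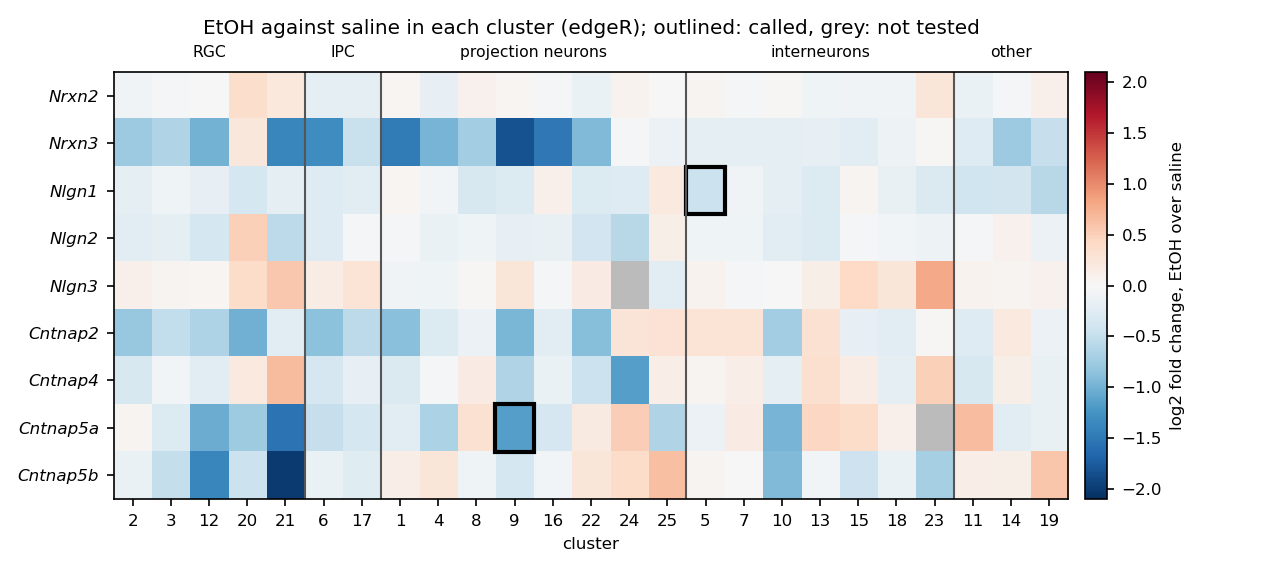
Colour gives the log2 fold change of EtOH over saline (edgeR) of each gene (rows) in each cluster (columns), with called pairs outlined and pairs not tested in grey. Nrxn3 is below 0 in 23 of 25 clusters with its lowest value, -1.82, in Cluster 9, and the 2 outlined pairs are Nlgn1 in Cluster 5 and Cntnap5a in Cluster 9.

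The embryos were then compared on 1 value per gene, the mean of log2 CPM over the 20 clusters with at least 10 nuclei in every embryo. Nrxn3, Cntnap2 and Nlgn1 were lower after EtOH, at 0.607, 0.774 and 0.856 of the saline level, and the other 6 genes did not pass. The test was limma at an adjusted p under 0.05 over 14709 genes, of which 23.3% were called and 12.3% called lower, so 3 calls among 9 genes stand against a high background. The median difference (EtOH minus saline, log2) was -0.21 over the 9 genes and -0.02 over all genes. When the counts of each cluster were first thinned to equal totals, 5.62% of genes were called lower and Nlgn2 joined the 3. Under this thinning the split of all calls moved from 1626 higher and 1802 lower to 1877 and 826, and without TMM scaling it was 1658 and 1198.

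Nrxn3 stood at 12.16, 12.04, 12.25, 11.35 and 11.42 log2 CPM in S1-1, S1-2, S2-1, S2-2 and S2-4, and at 11.12, 11.07, 11.27, 11.13, 10.92 and 11.23 in E1-1 to E2-4. All 6 EtOH embryos were below the lowest saline embryo, and S2-2 and S2-4 were the saline embryos nearest to them. The difference was -0.72 ± 0.16 (limma adjusted p = 0.0181), and only 0.272% of genes had a lower one. It was -1.01 in batch 1 and -0.53 in batch 2, and the two-sided exact permutation test over 462 splits of the embryos gave p = 0.00216, the smallest it can give (0.00476 within batches, also the smallest). With means per dam the limma adjusted p was 0.0204. The call was lost without S1-1 (-0.64, limma adjusted p = 0.0526), S1-2 (-0.67, 0.0536) or S2-1 (-0.62, 0.0502).

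For Cntnap2 the embryos stood at 9.59, 9.44, 9.71, 9.40 and 8.98 log2 CPM in saline and 9.04, 9.13, 9.08, 9.12, 8.95 and 9.02 in EtOH. Apart from S2-4, every saline embryo was above every EtOH embryo. The difference was -0.37 ± 0.10 (limma adjusted p = 0.0270), with -0.43 in batch 1 and -0.32 in batch 2, and the exact permutation p was 0.0173 (0.0190 within batches). It was -0.48 without S2-4. The call was lost without S1-1 (limma adjusted p = 0.0742), S1-2 (0.0682), S2-1 (0.0639) or E2-3 (0.0530), and when the median over clusters replaced the mean (-0.17, adjusted p = 0.348).

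Nlgn1 stood at 11.37, 11.45, 11.29, 11.24 and 11.17 log2 CPM in saline and 10.88, 11.13, 11.18, 11.11, 11.15 and 11.03 in EtOH embryos. S2-4 overlapped E2-1 only. The difference was -0.22 ± 0.06 (limma adjusted p = 0.0243), larger in batch 1 (-0.41) than in batch 2 (-0.12), with an exact permutation p of 0.00433 (0.00952 within batches). The call was lost with means per dam (limma adjusted p = 0.113) and without S1-1 (0.0631), S1-2 (0.0697) or S2-1 (0.0567). For Nrxn3, Cntnap2 and Nlgn1 the share of all genes called in the average with 1 embryo left out is not given. In means over PN clusters, the share of all genes called lower fell from 5.55% to between 0.204% and 0.700% without S1-1, S1-2 or S2-1.

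The other members had smaller or less even differences. Nlgn2 was -0.17 ± 0.06 (limma adjusted p = 0.0576, or 0.0494 with equal totals). Cntnap5a was -0.25 ± 0.14 (adjusted p = 0.193), with -0.61 in batch 1 and -0.03 in batch 2, and Cntnap5b was -0.21 ± 0.16 (0.365), with -0.57 and 0.03. Cntnap4 was -0.13 ± 0.07 (adjusted p = 0.189) and Nrxn2 -0.05 ± 0.05 (0.441). Only Nlgn3 was above 0, at 0.04 ± 0.06 (limma adjusted p = 0.714). With 1 embryo left out, these differences ranged from -0.22 to -0.14 for Nlgn2, -0.35 to -0.16 for Cntnap5a, -0.28 to -0.10 (without S1-1) for Cntnap5b, -0.17 to -0.08 (without S1-1) for Cntnap4, -0.08 to -0.03 (without S2-2) for Nrxn2 and 0.0048 (without E2-4) to 0.08 for Nlgn3.

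**Figure D4:**
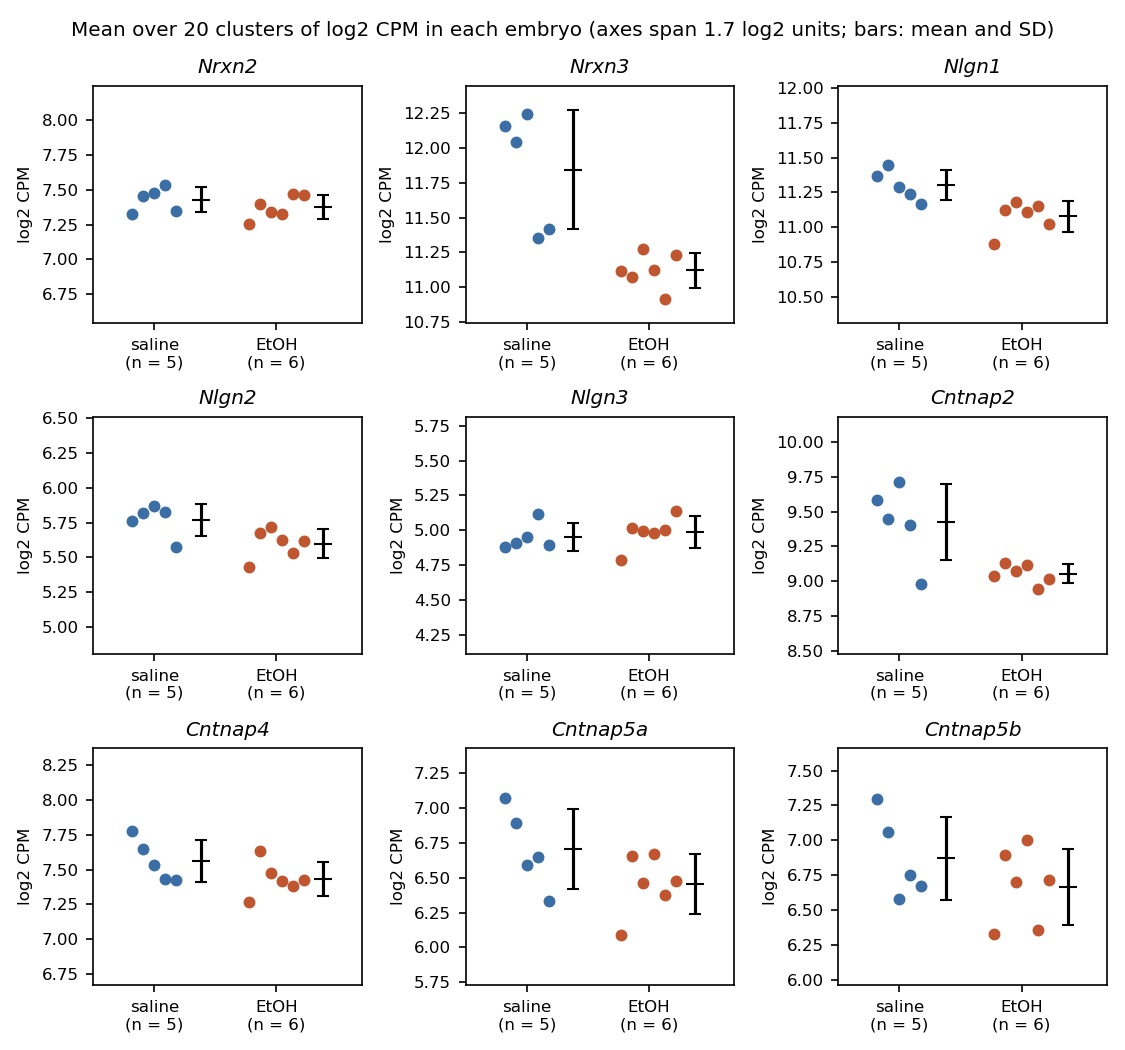
Points give the mean over 20 clusters of log2 CPM in each embryo for the 9 genes, 5 saline and 6 EtOH embryos, with bars for the mean and SD and the same axis length in each panel. The EtOH points for Nrxn3 all lie below the saline points, which themselves spread from 11.35 to 12.25.

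Long genes as a group had lower values after EtOH. Over all genes tested, the median difference went from 0.05 for genes spanning up to 20 kb (6.76% called lower) through -0.03 at 20 to 100 kb (13.6%), -0.08 at 100 to 300 kb (20.3%) and -0.13 at 300 to 600 kb (27.1%) to -0.17 over 600 kb (23.03% of 152 genes). Of the 9 members, 5 span more than 600 kb (Nrxn3, Nlgn1, Cntnap2, Cntnap5a and Cntnap5b). In that class the 5th percentile was -0.41, which lies below the values of Cntnap2 (-0.37) and Nlgn1 (-0.22) and above that of Nrxn3 (-0.72). The part of gene length in the members' differences was not tested.

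Averaged within classes, 4 members were called lower in PN, 1 in RGC, 1 in the other clusters and none in IPC or interneurons. Over the 6 PN clusters of the average, Nrxn3 (-1.26 ± 0.35, limma adjusted p = 0.0466), Cntnap2 (-0.52 ± 0.13, 0.0326), Cntnap4 (-0.25 ± 0.06, 0.0257) and Cntnap5a (-0.36 ± 0.09, 0.0251) were called lower, where 5.55% of all genes were. Beside all 4 calls, the IPC marker in PN lay at 14.4 to 24.7 CPM in saline and 9.90 to 13.8 CPM in EtOH embryos, and Neurod2 with Neurod6 at 299 to 377 and 268 to 298 CPM, and their part was not tested. In the 3 RGC clusters Nlgn2 was called lower (-0.30 ± 0.09, limma adjusted p = 0.0413) against 4.15% of all genes, and Nrxn3 at -0.82 ± 0.23 was not (0.0519). These 3 were Clusters 2 (RGC 1), 3 (Int Precursors) and 12 (Non-mitotic RGC), so the mean includes interneuron precursors. Markers differed in the RGC class too, with RGC markers at 283 to 405 CPM in saline and 371 to 469 CPM in EtOH embryos, pan-neuronal markers at 1160 to 1423 and 1030 to 1201 CPM, and the Layer I marker at 62.9 to 149.9 and 26.96 to 78.8 CPM, also not tested further. None of the 9 passed in the 6 interneuron clusters, where 2.83% of genes were called lower. There Nlgn1 came nearest (-0.20 ± 0.07, limma adjusted p = 0.0685), and Nrxn3 was -0.18 ± 0.09 (0.248). Over the 3 other clusters (striatal, Layer I and Cluster 19), Nrxn3 was called lower (-0.50 ± 0.11, limma adjusted p = 0.0420), where 0.673% of genes were. There 5 of 6 EtOH embryos lay below the lowest saline embryo. In Layer I Cluster 14 the striatal marker lay at 23.9 to 103 CPM in saline and 5.58 to 15.4 CPM in EtOH embryos. In striatal Cluster 11 it overlapped, at 1584 to 2080 and 1835 to 2197 CPM. The part of this marker's RNA in the Nrxn3 call was not tested. None passed over the 2 IPC clusters, where 1.14% of genes were called lower and Cntnap2 came nearest (-0.68 ± 0.20, limma adjusted p = 0.0896). With equal totals 1 PN call (Cntnap5a) and no RGC call remained. With counts summed over the 8 PN clusters, however, Cntnap5a lay at 146 to 215 CPM in saline and 158 to 242 CPM in EtOH embryos. Its log2 fold change (edgeR) was below 0 in 5 of the 8 PN clusters, from -1.15 to 0.51. The PN calls fell to 0 without S1-1, S1-2 or S2-1, to 1 without S2-2 or E2-2 and to 2 without E2-1, E2-3 or E2-4. Without S1-1, S1-2 or S2-1, 0.360%, 0.204% and 0.700% of all genes were called lower in PN, against 5.55% with all embryos. The RGC call was lost without S1-1, S1-2, S2-1, E1-1, E2-3 or E2-4. Of all genes, 0%, 0%, 0.150%, 3.47%, 1.55% and 2.03% were then called lower in RGC. Without S2-4, 6 members passed there, when 9.82% of all genes were called lower. In interneurons 1 member passed without S2-4 or without E2-3 (7.58% and 0.959% of genes called lower), and in IPC 1 (Cntnap2) without S2-4 (4.58%). Nrxn3 in the other clusters was lost with batch as a block (limma adjusted p = 0.0566) and without S1-1 (0.128), S1-2 (0.126), S2-1 (0.127), E1-2 (0.0609), E2-1 (0.0519), E2-2 (where the smallest adjusted p of any member was 0.0660), E2-3 (0.0822) or E2-4 (0.0639).

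The differences between classes did not pass a test of their own. None of the 9 genes was called by limma for PN minus RGC, PN minus interneuron or interneuron minus RGC, contrasts in which 0.0068%, 0% and 0% of all genes were called, while 10.0%, 6.68% and 9.12% of genes had an unadjusted p under 0.05. For Nrxn3 the EtOH difference was lower in PN than in interneurons by -1.09 ± 0.33 (95% interval -1.81 to -0.36, limma adjusted p = 0.589, exact permutation p = 0.0173). It was higher in interneurons than in RGC by 0.64 ± 0.18 (0.25 to 1.04, limma adjusted p = 0.348, exact permutation p = 0.00649). RGC here again includes the interneuron precursors of Cluster 3. Cntnap2 differed between PN and interneurons by -0.43 ± 0.14 (-0.73 to -0.13, limma adjusted p = 0.604, exact permutation p = 0.00433), and Cntnap5b between PN and RGC by 0.87 ± 0.24 (0.35 to 1.39, limma adjusted p = 0.250). The exact p-values are unadjusted, for 9 genes in 3 contrasts.

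Shares of nuclei moved with the levels. At 2000 UMIs per nucleus and averaged over the 20 clusters, Nrxn3 was seen in 93.8%, 88.8%, 96.5%, 81.9% and 67.9% of nuclei in the saline embryos S1-1, S1-2, S2-1, S2-2 and S2-4 and in 57.7%, 60.2%, 65.7%, 60.7%, 54.4% and 60.2% in the EtOH embryos. No EtOH embryo reached the lowest saline share, S2-4. The means were 85.8 ± 11.4% and 59.8 ± 3.72%, and 97.5% and 78.1% without thinning. The two-sided exact permutation p was 0.00216, the smallest that 462 splits of the embryos can give. These splits take littermates as independent. Nlgn1 was seen in 79.1% to 88.2% of nuclei in saline and 73.9% to 80.4% in EtOH embryos (86.0 ± 3.87% and 76.6 ± 2.57%, exact permutation p = 0.00433). Cntnap2 had 38.7% to 59.8% and 38.4% to 41.3% (49.7 ± 7.48% and 39.8 ± 1.12%, exact permutation p = 0.0130), with only S2-4 inside the EtOH range. Cntnap4 had 24.9 ± 1.74% and 22.1 ± 1.85% (exact permutation p = 0.0390), which rose to between 0.0556 and 0.0905 without any 1 of 9 of the 11 embryos (all but S2-4 and E1-2). Thinned to 1000 UMIs, its difference was -0.523 percentage points (exact permutation p = 0.372), against -2.77 at 2000. The other 5 genes had an exact permutation p of 0.130 or more, and the p-values of the 9 genes are not adjusted. Shares were not tested over all genes, so these counts stand without a background. Since depth differed between the groups, the thinned values are the ones to read.

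Nrxn3 in PN moved together with transcripts of interneurons. Gad2, Gad1 and Dlx1 summed to 46.8 to 119 CPM in the PN clusters of saline embryos (median 64.9) and to 23.1 to 58.1 CPM in those of EtOH embryos (median 42.4). The share of PN nuclei with a UMI of these genes was 18.2% to 52.4% in saline and 5.84% to 14.8% in EtOH embryos, with median depths in Cluster 1 of 7589 and 5781 UMIs. Nrxn3 in PN was 1500, 1323, 1864, 838 and 680 CPM in the saline embryos and 530, 838, 800, 572, 423 and 672 CPM in the EtOH embryos.

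Per UMI of the 3 interneuron markers, Nrxn3 had 14.54 to 20.4 UMIs in the PN clusters of saline embryos and 12.04 to 18.3 in those of EtOH embryos. In the interneuron clusters themselves it had 13.8 to 17.6 and 13.7 to 15.4, and in RGC Cluster 2 it had 13.6 to 19.98 and 12.1 to 15.2. In single clusters the ratio spread further, with 11.8 to 19.1 (saline) and 7.48 to 14.7 (EtOH) in Cluster 1, 9.76 to 23.8 and 8.83 to 25.8 in Cluster 9, and 10.8 to 21.1 and 6.24 to 14.3 in IPC Cluster 6. All these ranges overlapped that of interneurons. In PN and in each of these clusters embryos lay both below and above the interneuron range. Those above it were S1-1 and S1-2 (S1-2 alone in Cluster 2), joined by E2-3 in PN and Cluster 9. The median ratios in saline and EtOH embryos were 16.7 and 14.7 in PN, 14.4 and 12.6 in Cluster 1, and 16.6 and 11.8 in Cluster 9. They were 15.5 and 13.1 in Cluster 2, 13.6 and 9.15 in Cluster 6, and 15.04 and 14.8 in interneurons. For Cntnap2 the ratio differed by cell type, with 6.44 to 12.7 (saline) and 8.71 to 27.7 (EtOH) in PN, 1.302 to 2.70 and 0.828 to 3.28 in Cluster 2, and 0.919 to 1.81 and 1.11 to 2.18 in interneurons. When PN nuclei with a UMI of these markers were left out, an alternative added after seeing the data, the log2 fold change of Nrxn3 was -2.47 in Cluster 1 (edgeR adjusted p = 0.0349) and -2.36 in Cluster 9 (0.0458). This step left out a larger share of nuclei in saline than in EtOH embryos. Inside interneuron clusters the markers lay at 1279 to 1444 CPM in saline and 1238 to 1645 CPM in EtOH embryos. Other transcripts differed in PN too, with the Layer I marker at 157 to 382 and 128 to 231 CPM. The part of RNA from other cells in the Nrxn3 result was not tested further.

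**Figure D5:**
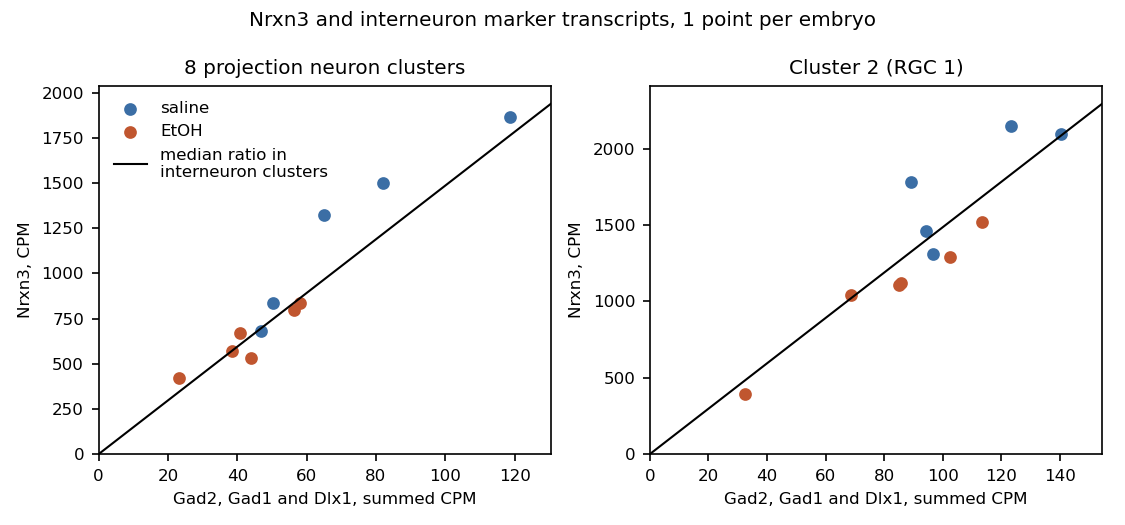
Points give, for each embryo, Nrxn3 in CPM against the summed CPM of Gad2, Gad1 and Dlx1 in PN clusters and in RGC Cluster 2, with a line at the median ratio found in interneuron clusters (14.9). Points of both treatments lie on either side of the line, though in Cluster 2 E2-2 is the only EtOH embryo above it. Saline embryos S1-1 and S2-1, which have the most marker RNA, also have the most Nrxn3.

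The partners of these proteins were read from a list of 25 genes, 13 acting outside the cell and 12 scaffolds inside it. In the cluster-averaged test 2 were higher after EtOH and 2 lower, or 4 of 25 beside 23.3% of all genes called. The higher ones were Lrrtm1, a postsynaptic leucine-rich repeat protein that binds neurexins (0.68 ± 0.14, limma adjusted p = 0.0165), and Mdga1, which binds neuroligins and blocks their contact with neurexins (0.22 ± 0.07, 0.0420). The lower ones were Nxph1, a secreted neurexophilin ligand of neurexins (-0.79 ± 0.21, limma adjusted p = 0.0251), and Apba2, a presynaptic adaptor (-0.13 ± 0.05, 0.0491, or 0.0943 with equal totals). The median difference was -0.09 over the genes acting outside (9 of 13 below 0) and -0.10 over the scaffolds (9 of 12 below 0), beside -0.02 over all genes.

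Cluster by cluster, 518 partner pairs were tested with edgeR, of which 3 were called higher and 2 lower, a share near the 0.792% of all gene and cluster pairs called. Lrrtm1 was higher in Cluster 1 (log2 fold change 0.71, edgeR adjusted p = 0.0462) and Cluster 10 (0.98, 0.0483), and Mdga1 in Cluster 1 (0.39, 0.0396). Mdga2, the relative of Mdga1, was lower in Cluster 9 (-0.99, edgeR adjusted p = 0.0463) and Nxph1 in Cluster 1 (-1.68, 0.0490). The main synaptic scaffold genes for excitatory synapses (Dlg4, -0.10 ± 0.04, limma adjusted p = 0.104) and inhibitory synapses (Gphn, -0.13 ± 0.05, 0.0565) did not pass in the cluster-averaged test, though Gphn passed with equal totals (adjusted p = 0.0421).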

How the data were processed

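Nuclei were profiled by droplet-based snRNAseq, and 11 embryos are used here. A 12th sample in the labels, saline S2-3, had no counts and was not used here. The paper reports leaving out 1 saline sample, which it does not name, because its cells were spread over the clusters differently. Reads were aligned by the authors with Cell Ranger on mm10 (version not given in the sources used here). They filtered nuclei and genes, left out some clusters, and deposited raw UMI counts per embryo and cluster. The columns were whole counts without normalization, and 0 columns of per-sample values were left unused. The authors name no doublet caller and none was run. Littermate libraries differed by a chi-square of 48.7 to 89.7 per gene within litter S2 and of 4.33 to 12.3 within the other litters, above the 1 of repeated draws.

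Counts were summed per embryo and cluster (at least 10 nuclei, at least 2 embryos per group) and tested with edgeR 4.0.16 (TMM, filterByExpr, robust glmQLFit), and a gene was called where the adjusted p was below 0.05 and the fold change exceeded 1.25 or lay under 0.8. Cluster averages used log2 CPM with a prior count of 2, TMM and a mean level of at least 1 CPM, tested with limma 3.58.1 (trend, robust) in R 4.3.3. Shares were tested by two-sided exact permutation over 462 splits of the embryos, or 210 within batches. Summaries used Python 3.11.15, NumPy 2.4.6, SciPy 1.17.1, pandas 2.3.3 and matplotlib 3.10.9. Genes were placed by symbol on GENCODE M21 (GRCm38), where 23125 matched. Scripts were tested on simulated data.

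The text names all 9 members, their 3 highest clusters and the lowest, every member and cluster pair called, the 3 genes most like each member (among genes with at least 20 CPM in some cluster), and partners by smallest adjusted p or most calls, up to 3 a direction. Results for some genes under this rule are not reported here. Pairs near the threshold, Nrxn3 in Cluster 5, Cntnap2 in Cluster 7, Dlg4 and Gphn were added after their values were seen. The members and lists were chosen with earlier results of these data known. Alternatives covered DESeq2 1.42.0, filters, scaling, prior count, depth, batch, dam and each embryo left out. Tests of class means, equal totals and PN nuclei without interneuron marker UMIs were added after the data were seen. Errors include counting error, and sequences are not shown.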

Additional observations from a re-analysis of the deposited data

Results flagged for a closer look

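Of 50 groups of embryos examined for a single embryo far from the rest, 1 stood out, where chance alone would pick about 1 in 20. Saline embryo S2-4 had Nlgn1 UMIs in 79.1% of nuclei (thinned, averaged over 20 clusters), while the other 4 saline embryos lay between 87.4% and 88.2%. The gap to its nearest neighbour was 0.905 of the range of the group.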

How the results depend on the processing

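Of 429 values of single members or pairs under an alternative, 363 kept their direction and side of the threshold, 39 lost the call, 19 gained it and 8 reversed. The number of member and cluster pairs called, 2 in the edgeR test, was 16 with DESeq2, 19 without a filter on low counts and 10 with counts summed per dam, and it ranged from 0 to 24 when 1 embryo was left out. The pairs called over all genes went from 1721 to 5506 with DESeq2, 10729 without the filter, 911 with the replicate block (batch as a covariate), 2112 with counts per dam, 4877 with voom and the dam as a random block, 733 after thinning to 2000 UMIs and 1252 without PN nuclei that held an interneuron marker UMI. Shares of all pairs tested are given for the main fit only, so the member counts of the alternatives stand without a background share. With the replicate block 2 pairs were called, Nlgn1 in Cluster 5 and Cntnap4 in Cluster 21. Cntnap5a in Cluster 9 was then lost (edgeR adjusted p = 0.0599). The labels give no pairing of embryos, so batch served as the block. In the cluster average 3 members were called with the block, 2 with means per dam, 2 with the median over clusters, 4 with equal totals and 0 to 4 when 1 embryo was left out. The share of all genes called is not given for the block or with 1 embryo left out, so those member counts stand without a background. Over all genes, 3428 were called in the cluster average, 1360 with means per dam, 1410 after thinning to 2000 UMIs, 1974 with the median over clusters and 2703 with equal totals. Using the median over clusters reversed Nlgn3 (-0.015), Cntnap4 (0.044), Cntnap5a (0.0056) and Cntnap5b (0.078), none of which was called in the average. Equal totals moved the PN class calls from 4 to 1 and the RGC calls from 1 to 0. The block moved the calls over the other clusters from 1 to 0. With 1 embryo left out the class calls ranged from 0 to 5 in PN, 0 to 6 in RGC and 0 to 1 each in interneurons, IPC and the other clusters. The share of all genes called lower then ranged from 0.204% to 11.5% in PN and from 0% to 9.82% in RGC. It was 0% to 7.58% in interneurons, 0% to 4.58% in IPC and 0.0068% to 2.35% in the other clusters. The contrasts between classes had 0 member calls throughout, with the block and with 1 embryo left out. For shares of nuclei 4 members had an exact permutation p under 0.05, 8 without thinning, and 3 to 4 with 1 embryo left out. Since shares were not tested over all genes, these counts have no background. Shares reversed for Nrxn2 (0.588 percentage points) and Cntnap5b (0.026) at 1000 UMIs, for Nlgn3 without thinning (-3.67) and for Cntnap5b without S1-1 (0.0036, in a range from -1.27), and none of these was called. The cause of these changes was not tested. The 3 members called in the average kept their sign in every alternative run. Of the 9 genes, 7 kept the highest cluster when counts were pooled over embryos, all but Nlgn2 and Cntnap4. Depth limited Nlgn3, with 13810 UMIs in all, and the smallest clusters, where embryos with fewer than 10 nuclei were left out (9 cases).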
